A study of Mus musculus with 816 samples.

Results

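The Fc gamma receptor genes of the mouse, Fcgr1, Fcgr2b, Fcgr3 and Fcgr4, and Fcer1g, which encodes the FcR gamma chain, were followed in cultured microglia given a panel of stimuli and in cells taken from the brains of mice. The members were taken by gene symbol, and these 5 genes were found both among the 45581 genes of the culture table and among the 29858 genes of the mouse table. The cultures were commercial microglia from neonatal mouse brain, plated in multi-well plates, and 784 of them were read at 4, 24 or 72 h after a single agent or a combination. Untreated cultures numbered 40 at 24 h and 25 at 72 h, and stimulated groups held 6 to 18 cultures at 24 h, 3 to 13 at 72 h and 5 to 8 at 4 h. Every stimulus at a time point was set against the same untreated cultures, so these comparisons are not independent of each other. The header of the culture table gives 3 cell lots and 10 plates. Untreated cultures at 24 h came from all 3 lots, and all 72 h cultures from lot May16. The labels do not say that the cultures of a group were separate cell preparations. The p-values therefore measure a spread that mixes wells, plates and, outside 72 h, lots.

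The mice belonged to an LPS comparison and an aging comparison, and the header of the deposited table gives the aging mice 2 experiment codes, each with mice of both ages. Female C57BL/6 mice 2 months old received LPS at 2 mg/kg into the peritoneum or PBS and were killed after 4 h, with 4 animals in each group. Male C57BL/6 mice without treatment were 2 months (11 animals) or 22 months old (13 animals). Cells from the mice were taken with CD11b beads after a Percoll gradient, a selection that does not separate microglia from other CD11b+ myeloid cells. In bulk samples such as these, fewer cells of a type and less RNA per cell cannot be told apart.

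Fc gamma receptors bind the constant part of IgG and let phagocytes respond to antibody-coated targets. The receptors encoded by Fcgr1, Fcgr3 and Fcgr4 are activating: they pair with the FcR gamma chain, whose ITAM recruits kinases of the Src and Syk families. The receptor encoded by Fcgr2b is inhibitory and carries its own ITIM, which recruits the phosphatase SHIP1, encoded by Inpp5d. In resident macrophages, microglia among them, the sum of both kinds of receptor sets the threshold for a response to immune complexes. The FcR gamma chain also serves other receptors, so its gene is not particular to IgG.

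On GRCm38, Fcgr1 lies on the reverse strand at chr3:96282909-96293969. The other members lie on chromosome 1, with Fcgr2b on the reverse strand at chr1:170958617-170976547, Fcgr4 on the forward strand at chr1:171018920-171029761, Fcgr3 on the reverse strand at chr1:171051174-171064935 and Fcer1g on the reverse strand at chr1:171229572-171234365. Reads came from the 3′ end of transcripts, where Fcgr2b and Fcgr3 are partly alike: 5.1% of the 31-base words in the last 500 bases of Fcgr2b transcripts also occur in Fcgr3. An antisense gene, Gm38204, overlaps Fcgr2b, and since the library type was detected automatically and is not given in the sources used here, whether reads of that pair were told apart is not known.

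The promoters of the members that moved most are shown because the genes responded to interferons in opposite directions. Each is the RefSeq stretch from 250 bases before to 50 bases after the annotated start, on GRCm38.p6, read 5′ to 3′ on the strand of the gene. They span chr3:96293920-96294219 (reverse) for Fcgr1, chr1:171018676-171018975 (forward) for Fcgr4 and chr1:170976022-170976321 (reverse) for Fcgr2b. Capitals mark the motifs that were searched on both strands.
Fcgr1: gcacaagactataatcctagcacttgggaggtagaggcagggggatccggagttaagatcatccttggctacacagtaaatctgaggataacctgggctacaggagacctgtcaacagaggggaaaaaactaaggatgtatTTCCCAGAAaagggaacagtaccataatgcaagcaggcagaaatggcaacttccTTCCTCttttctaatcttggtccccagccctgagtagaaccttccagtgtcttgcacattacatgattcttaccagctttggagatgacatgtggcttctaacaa
Fcgr4: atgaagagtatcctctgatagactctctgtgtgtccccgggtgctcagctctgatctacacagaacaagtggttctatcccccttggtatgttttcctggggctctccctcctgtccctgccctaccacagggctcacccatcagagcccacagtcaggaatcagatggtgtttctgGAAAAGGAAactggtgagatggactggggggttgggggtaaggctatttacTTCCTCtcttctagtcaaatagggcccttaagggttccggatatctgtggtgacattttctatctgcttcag
Fcgr2b: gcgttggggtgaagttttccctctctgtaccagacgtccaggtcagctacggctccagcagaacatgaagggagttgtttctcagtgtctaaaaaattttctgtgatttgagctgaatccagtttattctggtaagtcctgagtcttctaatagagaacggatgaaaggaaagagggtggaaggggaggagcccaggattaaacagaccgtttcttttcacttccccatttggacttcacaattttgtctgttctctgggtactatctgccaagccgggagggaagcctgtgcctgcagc

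The motifs were TTCNNNGAA (the letters of the interferon-gamma activated sequence), GAAANNGAA (a core of the interferon-stimulated response element) and GAGGAA (a core of PU.1 sites), and they were chosen after the promoters were read. The first is in the Fcgr1 promoter at position -109 from the start, and 8.3% of 32851 promoters hold it. The second is in the Fcgr4 promoter at position -73, and 8.56% of promoters hold it. The third, printed as its reverse complement TTCCTC, is in the promoters of Fcgr1 at -55, Fcgr4 at -22 and Fcgr3 at -6, and 28.3% of promoters hold it. The windows of Fcgr2b and Fcer1g hold none of these letters. A match is a description of the sequence and was not tested as a binding site.

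Levels are given as deposited, in CPM (read counts scaled to 1e6 mapped reads). They are not divided by transcript length, so levels of different genes are not compared. Differences are log2 fold changes on the log2(CPM + 1) scale, which understates the change of low genes. A gene was called higher or lower when limma gave a Benjamini-Hochberg adjusted p below 0.05 over all genes of the comparison and the change reached 1.5-fold. Depth, read from the spacing of the lowest values, was 1.00 to 38.2 M reads (M for 1e6) per culture (median 4.67 M) and 2.36 to 7.78 M per mouse. Summed levels of 8 microglial markers were 3581 to 9234 CPM in untreated cultures at 24 h, 917 to 7114 CPM at 72 h and 32559 to 68811 CPM in the mice. Summed levels of 8 neutrophil markers were 2.39 to 32.6 CPM in untreated cultures at 24 h and 0.594 to 149 CPM at 72 h. Of these markers, S100a9, Ngp and Retnlg were at 0 in every untreated culture at 24 h. A few cultures stood apart from their labels in Ifit3, a gene induced by interferon. It was at 93.9 CPM in replicate 5 of IC (a synthetic double-stranded RNA) at 24 h against 3530 to 11795 CPM in the other IC cultures, and at 95.5 and 16.4 CPM in replicates 2 and 6 of IC at 72 h against 1053 to 2519 CPM. Untreated replicate 10 at 72 h had 1538 CPM of Ifit3. Fold changes of IC against untreated cultures are given with and without those cultures, and leaving out the untreated one moved the 210 values of the members at 72 h by at most 0.077 on the log2 scale and changed 3 calls (Fcgr2b with IC, Fcgr4 with IFNa and Fcgr1 with PA, a fatty acid).

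At 24 h the members were called in 76 of 220 tests over 44 stimuli, or 34.5%, with 50 higher and 26 lower. Over all genes and the same stimuli 2.85% of tests were called higher and 6.16% lower. With the culture plate in the fit, 67 of the 76 calls stood. At 72 h, over 42 stimuli, 80 of 210 tests (38.1%) were called, 48 higher and 32 lower, against 2.69% higher and 2.8% lower over all genes, and 77 of the 80 stood with the plate in the fit. The calls were not spread alike over the members. Fcgr4 was called higher 14 times and lower 2 times at 24 h, Fcgr1 13 and 4 times, Fcer1g 10 and 1 times, Fcgr3 6 and 12 times, and Fcgr2b 7 times in each direction. At 72 h the counts of higher and lower calls were 19 and 1 for Fcgr1, 13 and 0 for Fcer1g, 10 and 1 for Fcgr4, 1 and 20 for Fcgr3, and 5 and 10 for Fcgr2b.

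**Figure D1:**
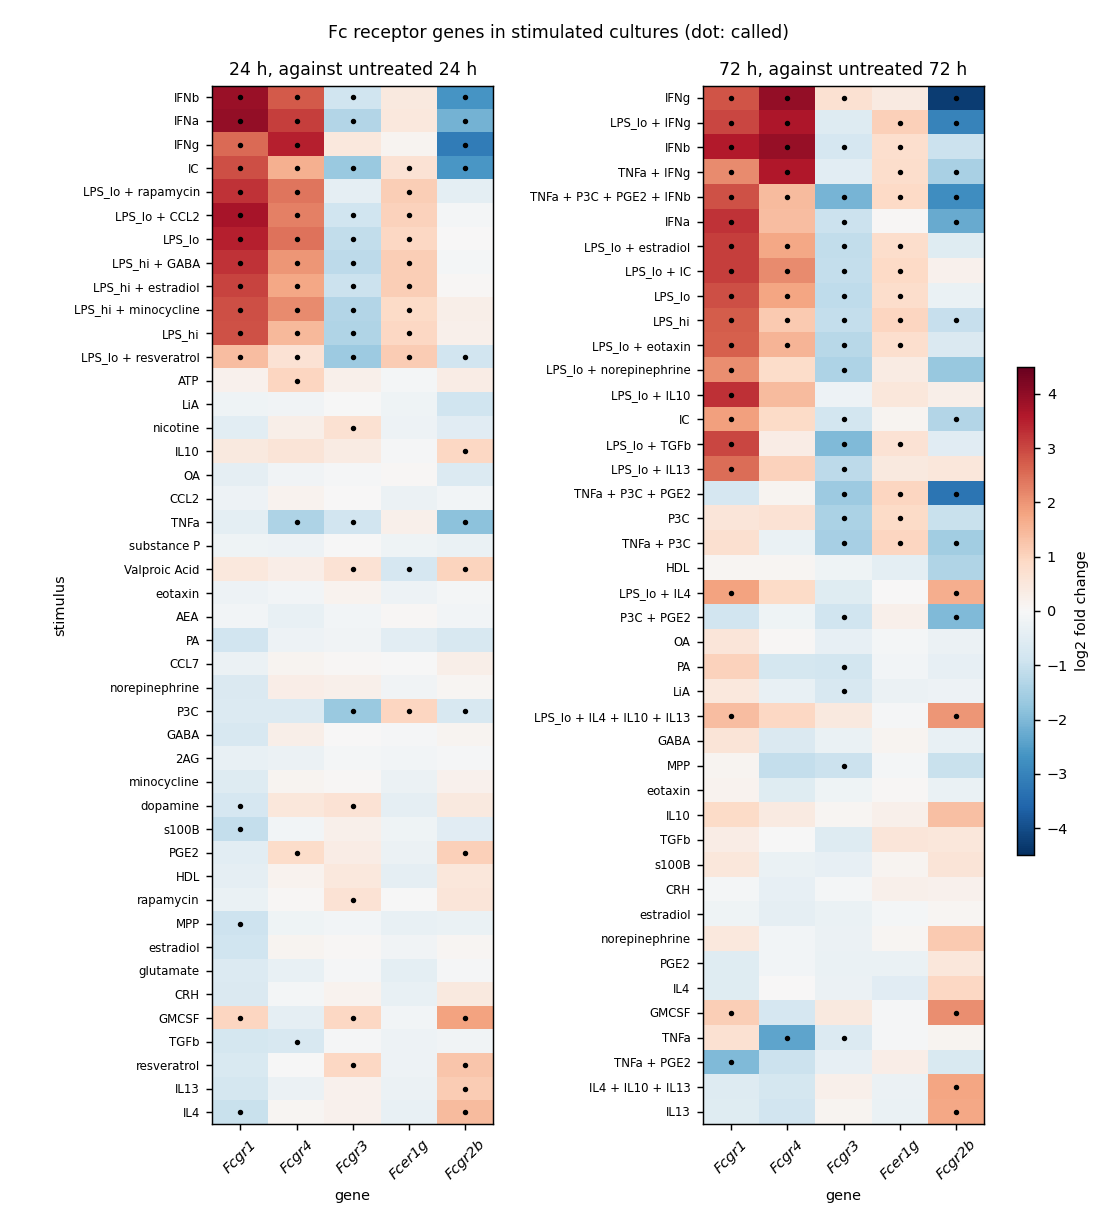
Log2 fold change of the 5 genes (columns) for each of 44 stimuli at 24 h (left) and 42 at 72 h (right) against untreated cultures of the same time, red for higher and blue for lower, with a black dot where the gene was called. Fcgr1 and Fcgr4 are red in the interferon and LPS conditions, where Fcgr3 is mostly blue, and Fcgr2b is blue under interferons and red under IL4, IL13 and GMCSF.

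Fcgr1, the high-affinity receptor for IgG, showed the largest rises of the members at 24 h. In untreated cultures it ranged from 27.6 to 93.3 CPM with a median of 59.1. With the type I interferons it reached 520 to 1257 CPM in 8 IFNa cultures (median 981) and 622 to 1087 CPM in 10 IFNb cultures (median 844), and neither group overlapped the untreated cultures. The log2 fold changes were 3.96 for IFNa (SE 0.26, limma adjusted p = 6.09e-39) and 3.87 for IFNb (SE 0.24, limma adjusted p = 1.24e-43). IFNg gave 179 to 458 CPM over 9 cultures (median 329), also clear of the untreated range, and a log2 fold change of 2.55 (SE 0.25, limma adjusted p = 5.06e-20). Over all genes, 5.82% rose with IFNa, 6.16% with IFNb and 8.01% with IFNg. Stimuli were also set directly against each other in 18 pairs, where members were called in 33 of 90 tests and 4.34% of all genes were higher and 3.34% lower. IFNg stood below IFNa by a log2 difference of -1.41 (SE 0.33, limma adjusted p = 0.000564), but the difference was -0.73 and not called with the plate in the fit, and below IFNb by -1.33 (SE 0.31, limma adjusted p = 0.000836).

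Ligands of pattern receptors differed in their effect on Fcgr1. LPS_hi (0.0001 ug/ul) raised it to 235 to 601 CPM over 18 cultures (median 424), a log2 fold change of 2.86 (SE 0.19, limma adjusted p = 5.5e-39), and LPS_lo (0.00001 ug/ul) to 455 to 856 CPM over 7 cultures (median 634), a log2 fold change of 3.48 (SE 0.28, limma adjusted p = 1.14e-28). Neither range touched that of the untreated cultures, and 9.58% of all genes were higher with LPS_hi, 6.93% with LPS_lo and 4.95% with IC. IC gave 41.3 to 780 CPM over 8 cultures (median 550), where the lowest was the culture without Ifit3. The log2 fold change was 2.89 with that culture and 3.37 without it (limma adjusted p = 8.45e-23 and 1.91e-28). P3C, a synthetic bacterial lipopeptide, left Fcgr1 at 6.2 to 85.1 CPM over 6 cultures (median 47.6), a log2 difference of -0.62 that was not called (limma adjusted p = 0.0926). LPS_hi exceeded P3C by a log2 difference of 3.48 at 24 h (SE 0.32, limma adjusted p = 5.75e-22). The cytokine TNFa gave 22.8 to 81 CPM over 7 cultures and no call (log2 difference -0.44, limma adjusted p = 0.432).

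Some smaller changes of Fcgr1 were not called with the plate in the fit. GMCSF, a growth factor of myeloid cells, gave 60.6 to 169 CPM over 8 cultures (median 119), a log2 fold change of 0.96 (SE 0.26, limma adjusted p = 0.00919) that was 0.60 and not called with the plate in the fit. IL4 gave 12.5 to 56.4 CPM over 11 cultures (median 28.5) and a log2 fold change of -0.99 (SE 0.23, limma adjusted p = 0.00111), which was -0.51 and not called with the plate. Both ranges overlapped the untreated cultures. The lower call for s100B, a calcium-binding protein, stood with the plate (-0.75) and was -1.06 without it (SE 0.25, limma adjusted p = 0.00417), from 13.9 to 42.4 CPM over 9 cultures (median 29).

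At 72 h Fcgr1 ranged more widely in untreated cultures, from 11 to 181 CPM with a median of 50.9, and the highest was the untreated culture with Ifit3. The 4 IFNb cultures had 731, 629, 427 and 688 CPM, the 7 IFNa cultures 225 to 975 CPM and the 6 IFNg cultures 201 to 566 CPM, and all lay above every untreated culture. Log2 fold changes were 3.58 for IFNb (SE 0.39, limma adjusted p = 1.14e-14), 3.25 for IFNa (SE 0.31, limma adjusted p = 6.44e-19) and 2.85 for IFNg (SE 0.33, limma adjusted p = 1.42e-13). LPS_hi gave 245 to 581 CPM over 13 cultures and a log2 fold change of 2.73 (SE 0.25, limma adjusted p = 3.68e-21). Over all genes 2.92% were higher with IFNb at 72 h, 2.78% with IFNa, 3.76% with IFNg and 4.68% with LPS_hi. The combination TNFa + PGE2, a cytokine with a prostaglandin, gave the one lower call at 72 h, at 0.672 to 34.2 CPM over 8 cultures (median 12) and a log2 fold change of -2.0 (SE 0.29, limma adjusted p = 6.08e-09), where 4.01% of all genes were lower.

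Fcgr4, an activating receptor of intermediate affinity for IgG2a and IgG2b, also rose with each interferon at 24 h, with its largest change under IFNg. Untreated cultures at 24 h held 20.3 to 182 CPM with a median of 58.7. IFNg gave 508 to 782 CPM (median 654), IFNa 236 to 984 CPM (median 637) and IFNb 343 to 451 CPM (median 384), and each range lay above the untreated one. The log2 fold changes were 3.51 for IFNg (SE 0.22, limma adjusted p = 5.67e-44), 3.11 for IFNa (SE 0.23, limma adjusted p = 4.04e-33) and 2.75 for IFNb (SE 0.21, limma adjusted p = 1.52e-31). LPS_lo gave 208 to 531 CPM (median 274), above the untreated range, while LPS_hi gave 35.6 to 468 CPM (median 148) and overlapped it. LPS_hi was below LPS_lo by a log2 difference of -0.99 (SE 0.26, limma adjusted p = 0.0389), which was -0.75 and not called with the plate in the fit. The dose was compared at 24 h and 72 h, and this was the 1 call in 10 tests, against 0.38% of all genes higher and 1.2% lower.

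IC raised Fcgr4 to 33.8 to 291 CPM (median 208), a log2 fold change of 1.59 (SE 0.23, limma adjusted p = 5.63e-10), or 1.92 without the culture that lacked Ifit3. P3C was not called (log2 difference -0.61, limma adjusted p = 0.0547). TNFa gave 7.29 to 43.9 CPM (median 22.3) and a log2 fold change of -1.38 (SE 0.24, limma adjusted p = 1.9e-06), although its upper cultures overlapped the untreated ones. ATP, a danger signal when outside cells, gave 66.5 to 179 CPM over 9 cultures (median 121) and a log2 fold change of 0.98 (SE 0.22, limma adjusted p = 0.00264), where 1.35% of all genes were higher. For TGFb, a cytokine that supports microglial identity, Fcgr4 was at 21 to 54.8 CPM over 8 cultures (median 32.7), a log2 fold change of -0.73 (SE 0.23, limma adjusted p = 0.0381).

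At 72 h the level of Fcgr4 under IFNg depended on the plate. Its 6 cultures held 3958, 4171, 2170, 426, 570 and 469 CPM, where the first 3 and the last 3 came from different plates, and untreated cultures held 6.21 to 237 CPM (median 86.8). All 6 lay above the untreated cultures, with a log2 fold change of 3.96 (SE 0.50, limma adjusted p = 1.49e-11) and of 3.83 with the plate in the fit. The 4 IFNb cultures, all from a single plate, held 1221, 1114, 1247 and 1313 CPM. Their log2 fold change was 3.91 (SE 0.59, limma adjusted p = 4.87e-08) and 2.88 with the plate in the fit. IFNa, which had raised Fcgr4 at 24 h, gave 62.4 to 826 CPM at 72 h (median 160) and was not called (log2 difference 1.37, SE 0.47, limma adjusted p = 0.0594). It was called with the plate in the fit (1.86) and when the untreated culture with Ifit3 was left out (1.43, limma adjusted p = 0.0479). The 3 TNFa cultures held 32.8, 10.9 and 8.43 CPM, a log2 fold change of -2.39 (SE 0.67, limma adjusted p = 0.00436), which was -2.02 and not called without replicate 3 (limma adjusted p = 0.0588).

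**Figure D2:**
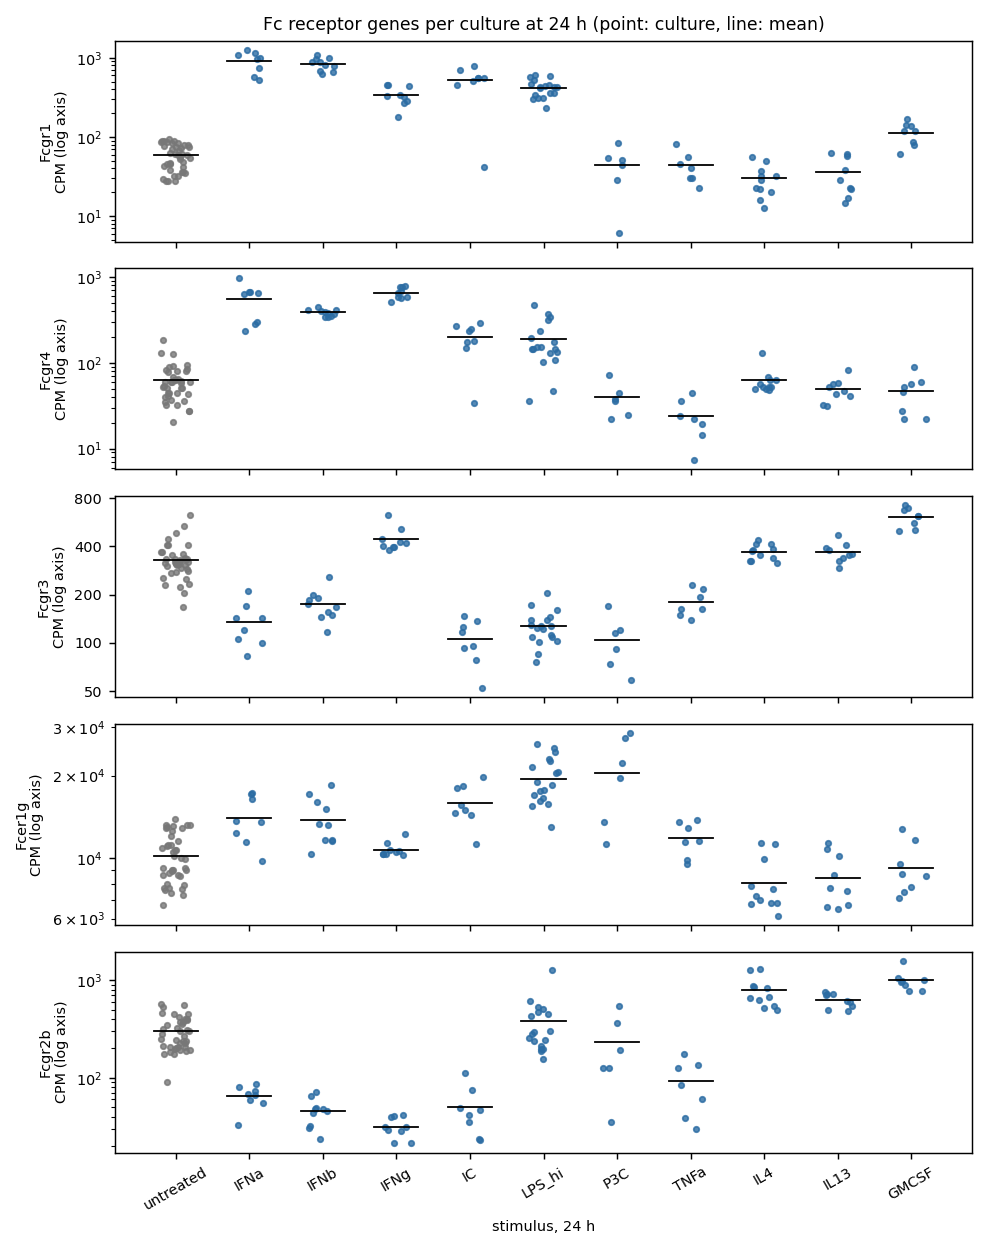
Level of each gene in single cultures at 24 h (points, CPM on a log axis; grey untreated, blue stimulated) with the group mean (line), for untreated cultures and 10 stimuli. The IFNa and IFNb cultures lie above the untreated cultures for Fcgr1 and Fcgr4 and below them for Fcgr2b, and 1 IC culture lies at 41.3 CPM of Fcgr1 among the untreated values.

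Fcgr3, an activating receptor of low affinity, was lower at 24 h with LPS_hi, IC and the type I interferons, where Fcgr1 and Fcgr4 were higher. It was also lower with P3C and TNFa, where neither Fcgr1 nor Fcgr4 was called higher. Untreated cultures at 24 h held 167 to 630 CPM (median 320). P3C gave 58.6 to 170 CPM (median 104), a log2 fold change of -1.68 (SE 0.15, limma adjusted p = 9.99e-25), IC 52.2 to 147 CPM (median 106) and -1.65 (SE 0.13, limma adjusted p = 2.52e-29; -1.64 without the culture that lacked Ifit3), and LPS_hi 75.8 to 204 CPM (median 125) and -1.37 (SE 0.09, limma adjusted p = 4.32e-37). The IC cultures lay below every untreated culture, and those of P3C and LPS_hi overlapped the lowest of them. IFNa lowered it to 82.3 to 210 CPM (log2 fold change -1.31, SE 0.13, limma adjusted p = 1.23e-19) and IFNb to 117 to 256 CPM (-0.90, SE 0.12, limma adjusted p = 6.71e-12). TNFa gave 138 to 230 CPM and -0.86 (SE 0.14, limma adjusted p = 1.32e-07). Over all genes 27.1% were lower with P3C, 13.6% with IC, 23.8% with LPS_hi, 16.3% with IFNa, 9.48% with IFNb and 4.06% with TNFa.

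The type II interferon did not lower Fcgr3. IFNg gave 379 to 630 CPM at 24 h (median 418), a log2 difference of 0.46 that passed the adjusted p (limma adjusted p = 0.00244) but not 1.5-fold. Against IFNa the log2 difference of IFNg was 1.76 (SE 0.16, limma adjusted p = 1.05e-21), and against IFNb 1.36 (SE 0.15, limma adjusted p = 6.36e-15). At 72 h the 6 IFNg cultures held 864 to 1407 CPM and lay above all untreated cultures (483 to 783 CPM, median 636), the one higher call of Fcgr3 at that time (log2 fold change 0.68, SE 0.17, limma adjusted p = 0.00227). The 4 IFNb cultures held 351, 373, 360 and 402 CPM and lay below them, with a log2 fold change of -0.76 (SE 0.20, limma adjusted p = 0.00691).

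Resveratrol, a plant stilbenoid, and GMCSF gave the largest rises of Fcgr3 at 24 h. Levels were 420 to 870 CPM over 11 resveratrol cultures (median 593) and 498 to 721 CPM over 8 GMCSF cultures (median 618). The log2 fold changes were 0.93 (SE 0.11, limma adjusted p = 3.95e-11) and 0.92 (SE 0.13, limma adjusted p = 2.74e-09). Both groups overlapped the upper untreated cultures, and 0.539% of all genes were higher with resveratrol. At 72 h LPS_hi gave 236 to 398 CPM (median 285) and LPS_lo 252 to 327 CPM (median 293), both below every untreated culture, with log2 fold changes of -1.07 (SE 0.13, limma adjusted p = 1.72e-13) and -1.14 (SE 0.13, limma adjusted p = 1.35e-13), where 13.7% of all genes were lower with LPS_hi. PA, the saturated fatty acid palmitic acid, gave 262 to 429 CPM over 7 cultures and a log2 fold change of -0.82 (SE 0.16, limma adjusted p = 0.000343).

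Fcer1g, the shared signalling chain, was called higher at 24 h with LPS conditions, P3C and IC and with no other stimulus. Untreated cultures held 6724 to 13924 CPM (median 9935). LPS_hi gave 13028 to 26116 CPM (median 18678), LPS_lo 14739 to 23573 CPM (median 18804) and P3C 11217 to 28616 CPM (median 20892). LPS_lo lay above every untreated culture, and the other ranges overlapped the highest of them. The log2 fold changes were 0.95 (SE 0.08, limma adjusted p = 1.23e-24), 0.93 (SE 0.12, limma adjusted p = 4.04e-12) and 0.96 (SE 0.13, limma adjusted p = 2.17e-11), and 5.58% of all genes were higher with P3C. IC gave 11203 to 19720 CPM and a log2 fold change of 0.66 (SE 0.11, limma adjusted p = 4.83e-07), or 0.62 without the culture that lacked Ifit3. IFNg, which raised its partner receptors Fcgr1 and Fcgr4, left Fcer1g at 10218 to 12227 CPM, a log2 difference of 0.11 (limma adjusted p = 0.57), and LPS_hi exceeded IFNg by 0.84 (SE 0.12, limma adjusted p = 6.48e-10). P3C thus raised the shared chain in cultures where none of the 3 activating receptors was called higher. At 72 h untreated cultures held 2027 to 8937 CPM (median 6625) and LPS_hi 8617 to 14976 CPM (median 12367), a log2 fold change of 0.98 (SE 0.14, limma adjusted p = 2.52e-09).

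Fcgr2b, the inhibitory receptor, fell with the interferons, was not called with LPS and rose with IL4 and IL13 at 24 h. In untreated cultures at 24 h it ranged from 89.7 to 573 CPM (median 273). IFNg gave 21.2 to 41.1 CPM (median 30.9), IFNb 23.3 to 71.5 CPM (median 46.5) and IFNa 32.7 to 85.7 CPM (median 67.8). Each of these groups lay below every untreated culture, with log2 fold changes of -3.14 (SE 0.25, limma adjusted p = 1.58e-29), -2.66 (SE 0.24, limma adjusted p = 8.22e-24) and -2.13 (SE 0.26, limma adjusted p = 1.81e-13). IFNg stood below IFNa by -1.01 (SE 0.32, limma adjusted p = 0.0178). Over all genes 8.19% were lower with IFNg, 9.48% with IFNb and 16.3% with IFNa.

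IC also lowered Fcgr2b, to 23 to 113 CPM (median 44.1), a log2 fold change of -2.62 (SE 0.26, limma adjusted p = 1.52e-19), and -2.81 without the culture that lacked Ifit3. TNFa gave 29.6 to 174 CPM (median 84.8) and -1.83 (SE 0.27, limma adjusted p = 1.33e-08). LPS_hi left it at 156 to 1266 CPM (median 288) and LPS_lo at 146 to 454 CPM (median 336), with log2 differences of 0.22 (limma adjusted p = 0.368) and 0.01 (limma adjusted p = 0.978). LPS_hi exceeded IFNg by 3.36 (SE 0.27, limma adjusted p = 8.08e-28) and IC by 2.84 (SE 0.28, limma adjusted p = 1.58e-18; 3.03 without the culture that lacked Ifit3). With P3C the log2 fold change was -0.74 (SE 0.29, limma adjusted p = 0.0383), or -0.55 and not called with the plate in the fit.

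GMCSF gave the highest levels of Fcgr2b, 771 to 1581 CPM over 8 cultures (median 970), all above the untreated cultures, with a log2 fold change of 1.81 (SE 0.26, limma adjusted p = 6.01e-09). IL4 and IL13, cytokines that share a receptor chain, gave 491 to 1301 CPM (median 673) and 486 to 755 CPM (median 615), with log2 fold changes of 1.42 (SE 0.23, limma adjusted p = 1.81e-07) and 1.14 (SE 0.25, limma adjusted p = 0.000732). IL10, an anti-inflammatory cytokine, gave 257 to 1065 CPM (median 448) and 0.91 (SE 0.25, limma adjusted p = 0.02). Resveratrol gave 388 to 1278 CPM (median 619) and 1.23 (SE 0.23, limma adjusted p = 6.83e-05), and PGE2 306 to 1122 CPM (median 614) and 1.06 (SE 0.26, limma adjusted p = 0.0175). The last 5 groups overlapped the untreated range. Over all genes 2.29% were higher with GMCSF, 4.84% with IL4, 2.43% with IL13 and 1.21% with IL10.

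At 72 h the 6 IFNg cultures held 43.1, 108, 31.8, 11.1, 0 and 4.44 CPM of Fcgr2b, where the fifth is listed at 0, against 91.5 to 582 CPM (median 329) in untreated cultures. All but 1 lay below every untreated culture, and the log2 fold change was -4.27 (SE 0.43, limma adjusted p = 9.18e-18). IFNa gave 9.48 to 142 CPM and -2.28 (SE 0.40, limma adjusted p = 3.38e-06). Over all genes 6% were lower with IFNg and 3.17% with IFNa. LPS_hi, not called at 24 h, gave 55.2 to 304 CPM of Fcgr2b at 72 h (median 161) and overlapped the untreated range, with a log2 fold change of -1.04 (SE 0.32, limma adjusted p = 0.011) that was -0.77 with the plate in the fit and -0.56 and not called with the library pool. LPS_lo was not called (-0.31, limma adjusted p = 0.714). The 4 IFNb cultures held 124, 139, 164 and 152 CPM and were not called (log2 difference -0.98, SE 0.50, limma adjusted p = 0.481), but were called with the plate in the fit (-1.53). IFNg stood below IFNb by -3.29 (SE 0.60, limma adjusted p = 2.43e-05). All 4 IFNb cultures came from a single plate, and its untreated cultures had the highest median of Fcgr2b among the plates at 72 h. Only the first 3 IFNg cultures shared that plate, and the value with the plate in the fit is not given here. Those 3, at 43.1, 108 and 31.8 CPM, lay below the 4 IFNb cultures. GMCSF again gave the highest levels, 519 to 1820 CPM (log2 fold change 2.08, SE 0.40, limma adjusted p = 5.93e-05, with 2.44% of all genes higher), and IL13 gave 800 to 1154 CPM (1.74, SE 0.43, limma adjusted p = 0.00712). IC at 72 h was called lower for Fcgr2b (-1.33), but without its replicates 2 and 6 the log2 difference was -0.78 (limma adjusted p = 0.429), and without untreated replicate 10 it was -1.29 (limma adjusted p = 0.0557).

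Along the order of condition means, neighbouring conditions mostly differed by less than their own SD. This held for 43 of 44 neighbouring pairs at 24 h for Fcgr1, 43 for Fcgr2b, 41 for Fcgr3, 43 for Fcgr4 and 44 for Fcer1g. The ends of the order at 24 h were IFNa and s100B for Fcgr1, IFNg and TNFa for Fcgr4, resveratrol and P3C for Fcgr3, GMCSF and IFNg for Fcgr2b, and LPS_lo + resveratrol and Valproic Acid for Fcer1g, the highest named first.

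Because the receptors signal in opposite directions, the change of each activating receptor was also taken relative to Fcgr2b in the same sample, as the difference log2(receptor + 1) minus log2(Fcgr2b + 1), and compared by permutation of samples. Of 75 such tests, 56 passed an adjusted p of 0.05, and with labels permuted within plates or experiments 53 of the 72 that could be run passed. The tests of a condition all subtract the same Fcgr2b value, so they are not independent, and a change of Fcgr2b alone moves them all. The share of other genes that would pass against Fcgr2b was not taken, so the count is no result about the activating receptors. With IFNg at 24 h the difference from untreated cultures was 6.65 for Fcgr4, 5.69 for Fcgr1 and 3.60 for Fcgr3, each in the same direction in 9 of 9 cultures (permutation p = 1e-05, the smallest that the draws can give, adjusted p = 2.5e-05). IFNa and IFNb moved Fcgr1 by 6.09 and 6.53 and Fcgr4 by 5.24 and 5.41. Fcgr3 rose relative to Fcgr2b with IFNb (1.75) although its own level fell, since Fcgr2b fell more. LPS_hi split the activating receptors: relative to Fcgr2b, Fcgr1 rose by 2.64 (17 of 18 cultures above the untreated mean) and Fcgr4 by 1.24, while Fcgr3 fell by 1.59 (18 of 18 below).

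P3C did not move Fcgr1 or Fcgr4 relative to Fcgr2b past the test (0.11 and 0.13, permutation adjusted p = 0.8357 for Fcgr1), while Fcgr3 differed by -0.95 (permutation adjusted p = 0.004565). IL4 gave -2.40 for Fcgr1, -1.34 for Fcgr4 and -1.23 for Fcgr3, and IL13 -1.93, -1.39 and -0.95 in the same order. GMCSF gave -2.22 for Fcgr4, -0.89 for Fcgr3 and -0.85 for Fcgr1, against the rise of Fcgr1 and Fcgr3 in their own levels. TGFb passed the test for no receptor at 24 h, with -0.64 for Fcgr1, -0.58 for Fcgr4 and 0.09 for Fcgr3. At 72 h IFNg gave 8.23 for Fcgr4, 7.12 for Fcgr1 and 4.95 for Fcgr3 (exact permutation p = 1.358e-06, the smallest this design allows). LPS_hi at 72 h gave 3.76 for Fcgr1, 2.21 for Fcgr4 and -0.03 for Fcgr3 (permutation adjusted p = 0.9233).

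**Figure D3:**
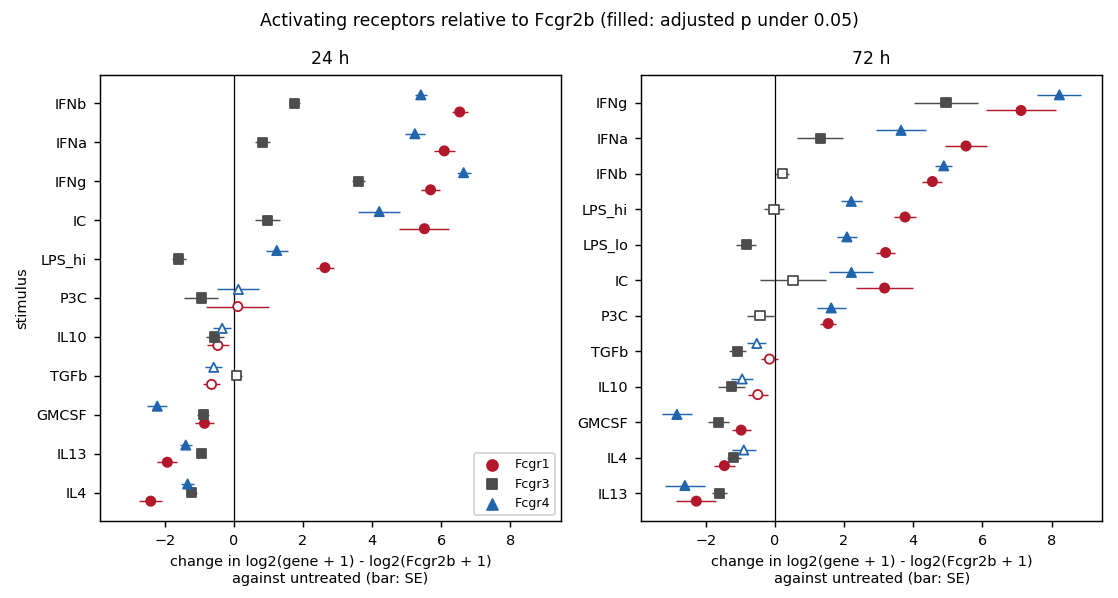
Change in log2(receptor + 1) minus log2(Fcgr2b + 1) against untreated cultures for 11 stimuli at 24 h (left) and 12 at 72 h (right), with red circles for Fcgr1, grey squares for Fcgr3 and blue triangles for Fcgr4, bars for the SE and filled points where the permutation adjusted p was below 0.05. The interferons and IC lie to the right of 0 at 24 h, up to 6.65 for Fcgr4 with IFNg, and IL4, IL13 and GMCSF lie to its left.

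A second agent given with LPS was compared with LPS alone at the same dose and time in 19 conditions. Members were called in 13 of 95 tests, 7 higher and 6 lower, against 0.867% higher and 0.575% lower over all genes. Resveratrol with LPS_lo at 24 h gave 35.2 to 230 CPM of Fcgr1 over 8 cultures (median 200) and 57.8 to 153 CPM of Fcgr4 (median 81.2). With LPS_lo alone Fcgr1 was at 455 to 856 CPM and Fcgr4 at 208 to 531 CPM, so neither gene overlapped. The log2 differences were -2.08 for Fcgr1 (SE 0.35, limma adjusted p = 1.04e-05) and -1.81 for Fcgr4 (SE 0.30, limma adjusted p = 1.04e-05), where 1.07% of all genes were lower. In the same cultures Fcer1g was at 13511 to 27242 CPM, the highest of its condition means at 24 h. Rapamycin, an inhibitor of mTOR, raised Fcgr3 over LPS_lo by 0.71 (SE 0.18, limma adjusted p = 0.025).

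At 72 h the cytokines of alternative activation, added to LPS_lo together, moved 4 of the 5 members. The 5 cultures with LPS_lo + IL4 + IL10 + IL13 held 1375, 1792, 1039, 773 and 875 CPM of Fcgr2b and 693, 669, 799, 983 and 1216 CPM of Fcgr3. LPS_lo alone gave 92.6 to 387 CPM of Fcgr2b and 252 to 327 CPM of Fcgr3, so neither overlapped. The log2 differences were 2.28 for Fcgr2b (SE 0.50, limma adjusted p = 0.000735) and 1.57 for Fcgr3 (SE 0.20, limma adjusted p = 3.71e-11), where 1.54% of all genes were higher and 2.19% lower. The same cultures held 86.9, 95.3, 105, 234 and 210 CPM of Fcgr1, where LPS_lo alone gave 212 to 594 CPM and 1 culture overlapped. Fcgr1 was lower by a log2 difference of -1.49 (SE 0.39, limma adjusted p = 0.00844), which was -1.28 and not called with the plate in the fit, and -1.33 without replicate 1 (limma adjusted p = 0.0532). Fcer1g, at 5223, 4008, 5939, 6159 and 7014 CPM, was lower by -0.85 (SE 0.23, limma adjusted p = 0.00853), or -0.74 and not called without replicate 2 (limma adjusted p = 0.0668).

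Of the single cytokines added to LPS_lo at 72 h, IL4 gave 459, 1047, 1143, 1345 and 752 CPM of Fcgr2b, a log2 difference of 1.95 (SE 0.50, limma adjusted p = 0.0151) that was 1.80 to 1.89 and not called without replicate 2, 3 or 4 (limma adjusted p = 0.0537 to 0.0785). IL10 gave 439, 467, 463, 768 and 633 CPM of Fcgr3, all above LPS_lo alone, with 0.92 (SE 0.20, limma adjusted p = 0.00281), or 0.79 and not called without replicate 4 (limma adjusted p = 0.0719). TGFb lowered Fcgr3 further, to 108 to 207 CPM (median 165), a log2 difference of -0.84 (SE 0.17, limma adjusted p = 0.000308). IFNg with LPS_lo gave 10.3 to 111 CPM of Fcgr2b (median 32.9) and 492 to 1473 CPM of Fcgr4 (median 1406), with -2.71 for Fcgr2b (SE 0.45, limma adjusted p = 1.84e-06) and 1.87 for Fcgr4 (SE 0.53, limma adjusted p = 0.0328) against LPS_lo alone.

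**Figure D4:**
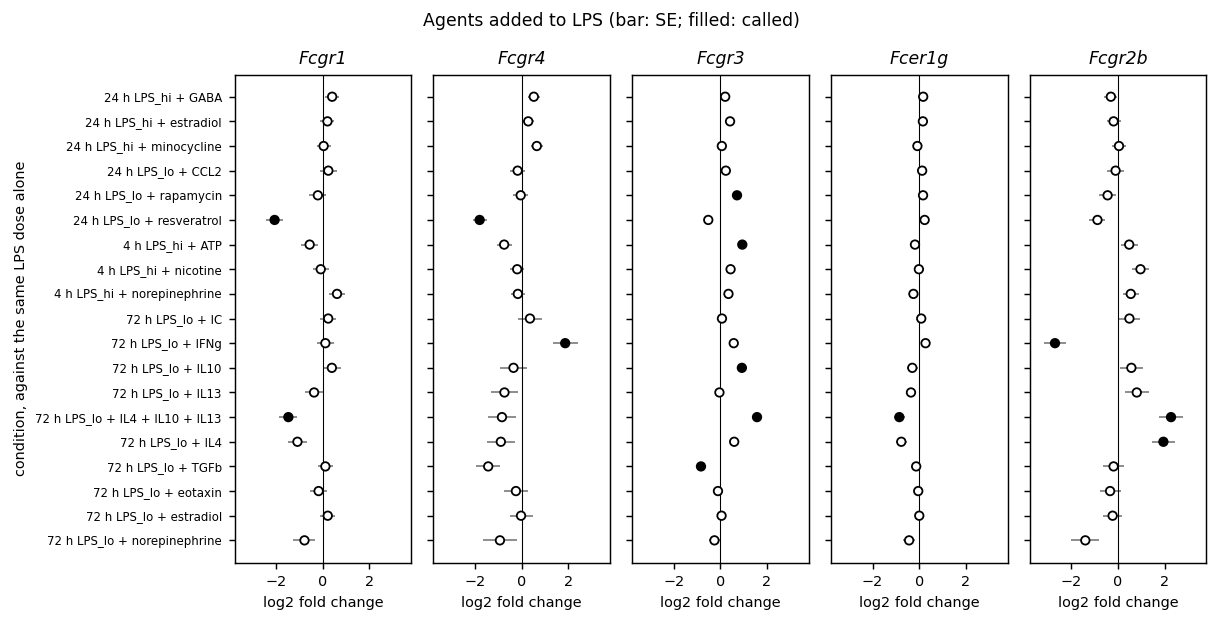
Log2 fold change of the 5 genes against the same LPS dose alone for 19 additions, with bars for the SE and filled points where the gene was called. LPS_lo + resveratrol stands at -2.08 for Fcgr1, and LPS_lo + IL4 + IL10 + IL13 stands at 2.28 for Fcgr2b and 1.57 for Fcgr3.

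At 4 h no culture was untreated, so stimuli given with LPS_hi were set against cultures at 4 h without LPS. Over 4 such comparisons members were called in 6 of 20 tests, 2 higher (10%) and 4 lower (20%). These shares are near those of all genes, with 7.29% higher and 16.9% lower. Fcgr3 was already lower at 4 h: the 7 LPS_hi cultures held 79.9 to 110 CPM (median 106), below all cultures with the chemokines CCL2 (231 to 329 CPM) or CCL7 (243 to 376 CPM), with a log2 difference of -1.55 (SE 0.15, limma adjusted p = 1.28e-19). With norepinephrine on both sides the difference was -1.43 (SE 0.17, limma adjusted p = 1.22e-13), and with nicotine -1.30 (SE 0.17, limma adjusted p = 3.6e-12). With ATP on both sides it was -0.38 and not called (SE 0.20, limma adjusted p = 0.203). ATP added to LPS_hi held Fcgr3 at 156 to 225 CPM, above LPS_hi alone by 0.94 (SE 0.19, limma adjusted p = 8.97e-05). Fcgr1 was at 42.4 to 96.5 CPM with LPS_hi (median 59.3) against 20.1 to 55.1 CPM with CCL2 and 16.9 to 50.7 CPM with CCL7, a log2 difference of 0.86 (SE 0.31, limma adjusted p = 0.018). Fcgr2b was at 84.5 to 328 CPM with LPS_hi (median 201), where CCL2 gave 201 to 452 CPM and CCL7 130 to 556 CPM, a log2 difference of -0.85 (SE 0.31, limma adjusted p = 0.0186). Fcgr2b was not called in the other comparisons at 4 h, with 0.18 for nicotine, 0.09 for ATP and -0.14 for norepinephrine.

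Untreated cultures themselves differed between 72 h and 24 h in 2 of 5 members, against 3.64% of all genes higher and 13.6% lower at 72 h. Fcgr3 was higher at 72 h by a log2 difference of 0.98 (SE 0.09, limma adjusted p = 6.76e-23) and Fcer1g lower by -0.78 (SE 0.09, limma adjusted p = 3.81e-15). Neither call stood with the culture plate in the fit (-0.02 for Fcgr3 and -0.42 for Fcer1g), where a single plate holds cultures of both times and none of its 24 h cultures is untreated. Time and plate cannot be told apart in these values. Cell lot differed too: all 72 h cultures came from lot May16, and the untreated 24 h cultures from 3 lots. Within lot May16, 1 of the 2 calls stood. The effect of a stimulus, each against untreated cultures of its time, differed between 72 h and 24 h in 10 of 125 tests of the members. Over all genes 3.66% of such tests passed an adjusted p of 0.05. Cell lot differs between the times here too, so these differences cannot be credited to time alone.

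Injected LPS gave another pattern in the CD11b+ cells taken from mice after 4 h. Of 5 members 2 were called, both higher, against 7.73% of all genes higher and 10.3% lower. Fcgr3 was at 580, 739, 717 and 721 CPM in PBS mice and at 1471, 1414, 1239 and 1228 CPM in LPS mice. Fcgr4 was at 12.2, 16, 16.2 and 16.1 CPM in PBS mice and at 28.9, 68.2, 43.0 and 31.6 CPM in LPS mice. In both genes all LPS mice lay above all PBS mice, with log2 fold changes of 0.96 for Fcgr3 (SE 0.13, limma adjusted p = 7.32e-05) and 1.37 for Fcgr4 (SE 0.24, limma adjusted p = 0.000941). The median over all genes was -0.19 in this comparison, and scaling that sets it near 0 moved all values up by 0.17.

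Fcgr1, which LPS raised in cultures at 24 h, was at 423, 357, 343 and 250.5 CPM in PBS mice and 293, 533, 220 and 365 CPM in LPS mice. The groups overlapped, and the log2 difference was -0.01 (SE 0.23, limma adjusted p = 0.974), or -0.24 to 0.19 when single mice were left out. Fcgr2b was at 486, 533, 550.2 and 569 CPM in PBS mice and 741, 640, 796 and 647 CPM in LPS mice. Those groups did not overlap, but the log2 difference of 0.40 (SE 0.12, limma adjusted p = 0.0313) did not reach 1.5-fold. Fcer1g, at 3852 to 4767 CPM in PBS mice and 5763 to 6622 CPM in LPS mice, differed by 0.49 (SE 0.13, limma adjusted p = 0.0173), also under 1.5-fold, and was called with median-ratio scaling (0.66). Relative to Fcgr2b, Fcgr4 differed by 0.98 and Fcgr3 by 0.56 (exact permutation p = 0.02857, the smallest that 4 against 4 mice allow, adjusted p = 0.03827).

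Markers of other cells moved with this comparison. Summed levels of 8 neutrophil genes were 202 to 379 CPM in LPS mice and 97.1 to 172 CPM in PBS mice, and 5 of 7 tested were called higher. Those of 6 monocyte genes were 63.4 to 123 CPM against 26.8 to 61.6 CPM, with 3 of 5 tested called higher and 1 lower. Those of 5 NK and T cell genes, too low to be tested, were 5.27 to 15.1 CPM against 2.16 to 10.1 CPM. The second LPS mouse, the highest of its group in Fcgr1 and Fcgr4, stood apart in 2 erythrocyte genes, with 5479 CPM against 42.1 to 226 CPM in the other mice. Without it the log2 differences were 1.13 for Fcgr4, 0.93 for Fcgr3 (both called) and -0.24 for Fcgr1. The mast cell and basophil genes Mcpt4, Ms4a2 and Mcpt8 were at 0 in all 8 mice, and the B cell gene Cd79a had a median under 1 CPM in both groups. Microglial marker sums overlapped, at 46557 to 52122 CPM and 43611 to 54669 CPM. The part of these cells in the values of Fcgr3 and Fcgr4, which neutrophils and monocytes also express, was not tested.

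**Figure D5:**
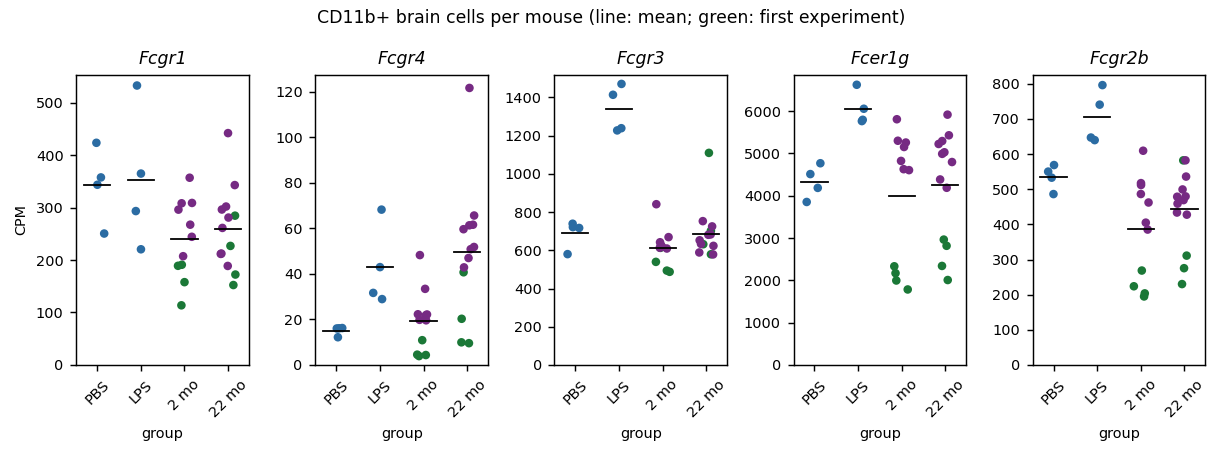
Level of each gene in single mice (points, CPM on a linear axis from 0) with the group mean (line), for PBS and LPS mice (blue) and mice of 2 and 22 months in the first (green) and second (purple) experiment. The LPS mice lie above the PBS mice in Fcgr3 and Fcgr4 and mix with them in Fcgr1, and both experiments show higher means of Fcgr4 at 22 months.

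In aged mice 0 of 5 members were called by limma, against 2.1% of all genes higher and 0.197% lower. Fcgr4 was nearest to the threshold. The 2 experiments, which also have separate ranges of library numbers, differed in level. In the first, mice of 2 months held 4.5, 4.4, 3.9 and 10.9 CPM and mice of 22 months 9.9, 40.7, 20.3 and 9.6 CPM, and in the second, 7 mice of 2 months held 19.6 to 48.2 CPM (median 22.2) and 9 mice of 22 months 42.9 to 122 CPM (median 59.6). Within each experiment the older mice were mostly higher with some overlap. The log2 difference was 1.40 (SE 0.41, limma adjusted p = 0.0557), not called. With the experiment in the fit it was 1.29 and called (SE 0.20, limma adjusted p = 4.14e-05), within the second experiment it was 1.20 and called (limma adjusted p = 0.000189), and within the first 1.48 and not called (limma adjusted p = 0.170). Relative to Fcgr2b, Fcgr4 was higher at 22 months by 1.15, with 12 of 13 mice above the mean at 2 months (permutation p = 0.00066, adjusted p = 0.001151).

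The other members did not pass in the older mice, with log2 differences of 0.13 for Fcgr1 (limma adjusted p = 0.883), 0.25 for Fcgr2b (0.684), 0.16 for Fcgr3 (0.597) and 0.15 for Fcer1g (0.902). Their levels also differed between the experiments. At 2 months Fcer1g was at 1784 to 2332 CPM in the first and 4604 to 5807 CPM in the second, and Fcgr2b at 195 to 269 CPM and 385 to 610 CPM. Summed neutrophil markers were 197 to 1301 CPM at 2 months (median 659) and 369 to 4330 CPM at 22 months (median 1285), and 3 of 8 neutrophil and 2 of 5 monocyte genes were called higher. Summed NK and T cell markers were 2.19 to 26.1 CPM at 2 months (median 6.67) and 8.41 to 110 CPM at 22 months (median 32), and 2 of 2 tested were called higher. The part of these cells in the values of Fcgr4 was not tested.

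Over 95 culture conditions the members' log2 differences from untreated cultures were correlated pair by pair, as a description, since conditions share their untreated cultures and plates. Fcgr1 went with Fcgr4 (Pearson r = 0.787) and with Fcer1g (0.698), and Fcgr3 went against Fcer1g (-0.734) and Fcgr1 (-0.504). Fcgr2b had its highest r with Fcgr3 (0.452) and its lowest with Fcgr4 (-0.435). Among 10766 genes, those most like Fcgr1 were Oas3 (0.914), Bst2 (0.910), H2-T22 (0.901), Phf11b (0.901) and Dhx58 (0.898). Those most like Fcgr4 were Samhd1 (0.863), Coa5 (0.849), Iigp1 (0.839), Il18bp (0.829) and Tgtp2 (0.828). For Fcer1g they were Cp (0.875), Slc31a2 (0.875), Cd300e (0.871), Fpr2 (0.870) and Rac2 (0.866), where Rac2 is a GTPase of phagocytes. Fcgr2b and Fcgr3 had no gene as close: Fam219a (0.691), Mrc1 (0.665), Dab2 (0.659), Atp6v0a1 (0.634) and Nek6 (0.632) led for Fcgr2b, and Deptor (0.734), Slc25a3 (0.726), Eva1a (0.723), Ndst1 (0.722) and St6gal1 (0.722) for Fcgr3.

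The signalling partners of the receptors were read from lists in the same comparisons, beside the share of all genes. Of 20 kinases and adaptors near activating receptors, 6 were higher and 3 lower with IFNg at 24 h (list median 0.52, all genes -0.05). Plcg1 and Blnk, 2 of the 3 lower, fell by 1.2 and 1.16, and the 6 higher ones are not named here. The shares of all genes called were 8.01% higher and 8.19% lower. With LPS_hi 9 were higher and 5 lower (list median 0.52, all genes -0.20, with 9.58% of all genes higher and 23.8% lower), led by Src (2.95) and Rac2 (2.15). With IL4 2 were higher, Fyn at 1.86 and Prkcd at 1.39, and 3 were lower, which are not named here. Of all genes 4.84% were higher with IL4 and 1.94% lower. Of 8 inhibitory phosphatases and adaptors, Ptpn6, which encodes SHP1, rose with IFNg (1.36), IFNa (1.3) and LPS_hi (1.2), while Inpp5d, the phosphatase used by Fcgr2b, fell by 0.92 with LPS_hi. Cblb, a ubiquitin ligase, rose by 2.23 with IL4. GMCSF gave no call among the 20 kinases and adaptors or the 8 inhibitory genes. Only 2.29% of all genes were higher with GMCSF, so the lack of higher calls is near that share.

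Among other Fc receptors, Trim21, the cytosolic antibody receptor, rose with IFNg (2.02), IFNa (1.66) and LPS_hi (2.06), and Fcrls, which is also in the microglial marker list, fell by 3.84 with IFNg, by 1.17 with IFNa and by 3.90 with LPS_hi. Fcgrt, the neonatal Fc receptor, fell by 1.24 with IFNa and by 1.72 with LPS_hi. Of 7 other ITAM partners and their receptors, Clec4e rose by 5.28 and Trem1 by 1.66 with LPS_hi while Trem2 fell by 2.75, and Clec7a rose with GMCSF (2.67), IL4 (2.12) and IFNg (1.57). In LPS mice the leading calls of the same lists were Clec4e (3.65), Trem1 (2.63), Fgr (2.31) and Fcer2a (1.89), and 4 of 18 tested kinases and adaptors were higher and 2 lower. In aged mice Fgr, a Src family kinase of myeloid cells (1.18, limma adjusted p = 0.00703), and Clec7a (1.03, limma adjusted p = 0.00477) were the 2 genes of these lists that were called. The lists were chosen with earlier results of these data known.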

How the data were processed

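The transcript 3′ ends of 784 cultures and 32 mice were sequenced. The authors quantified transcripts of Ensembl build 81 with Salmon 0.7.1, added up the reads of the isoforms and scaled by all mapped reads. The deposited values are therefore CPM, although the study calls them TPM, and the submitters' processing notes name the build mm8. No coordinate was read from the deposited files. Only part of the low values lay near whole multiples of the step between low values (median 77.6% per culture). Whole read counts were therefore not recovered for all values, and no count test was used.

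Values were tested as log2(CPM + 1) with limma 3.58.1 (trend) in R 4.3.3. Cultures had 1 fit for 4 h and 24 h, 1 for 72 h and 1 for 24 h and 72 h together. Mice had 1 fit for the LPS comparison and 1 for the aging comparison, where both experiments were pooled. Genes above 5 CPM in at least 4 samples (11 for aging) were kept, and p-values were adjusted by Benjamini-Hochberg over all genes of a comparison. A call required an adjusted p below 0.05 and 1.5-fold. The difference from Fcgr2b was tested by 2-sided permutation, exact or with 100000 draws, adjusted over 75 tests, and as an alternative within plates or experiments. Python 3.11.15 was used otherwise. Fits were tested on simulated data. Alternatives were the culture plate, library pool, a pseudocount of 5, no filter, median-ratio scaling, other minimum folds and leaving out single samples. The IC cultures and the untreated culture that stood apart were left out as alternatives chosen after seeing the data. One culture labelled LPS_hi with the LPS_lo dose entered no comparison. The 5 members and the lists were chosen with earlier results of these data known, and the genes named were the members, the 5 genes most like each, and in each list the 3 largest changes among those called. Results for some genes that meet this rule are not reported here.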

Additional observations from a re-analysis of the deposited data

Results flagged for a closer look

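Samples were screened in 100 sets of 4 to 10 samples for a member, which cover only part of the groups of that size. Of these sets, 7 held a sample set apart from the others by Dixon's criterion, and chance gives about 1 in 20. In cultures these were replicate 3 of GMCSF at 24 h in Fcgr2b (1581 CPM, the others 771 to 1040), replicate 5 of IC at 24 h in Fcgr1 (41.3 CPM), replicate 5 of IL10 at 24 h in Fcgr4 (149.1 CPM), replicate 2 of IFNg at 72 h in Fcgr3 (1407 CPM) and replicate 5 of P3C at 72 h in Fcgr1 (149.2 CPM). In mice the first PBS mouse was the lowest in both Fcgr3 (580.1 CPM) and Fcgr4 (12.17 CPM).

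The effect of a stimulus differed between 72 h and 24 h in 10 of 125 tests over 25 stimuli. All 72 h cultures came from cell lot May16 and the 24 h cultures from 3 lots, so these differences cannot be credited to time alone. The difference, as the log2 effect at 72 h minus that at 24 h, was 1.877 for Fcgr1 with PA, 1.565 for Fcgr1 with s100B and 1.273 for Fcgr1 with GABA. For Fcgr3 it was 0.8412 with IC, -0.824 with MPP, -0.6627 with PA and -0.6224 with s100B. For Fcgr2b it was 1.968 with TNFa and -1.261 with LPS_hi, and for Fcgr4 -1.736 with IFNa. Over all genes 3.66% of these tests passed. With the culture plate in the fit 14 of the 125 passed, against 3.84% over all genes. Fcgr2b with LPS_hi (-0.77, limma adjusted p = 0.119) and Fcgr4 with IFNa (-0.90, limma adjusted p = 0.257) no longer passed, while Fcgr1 and Fcgr2b with IC, Fcgr3 with LiA, Fcgr3 and Fcgr4 with PGE2 and Fcgr2b with s100B did. Without the IC and untreated cultures that stood apart, Fcgr3 with IC was 0.57 and no longer passed (limma adjusted p = 0.169), nor did Fcgr4 with IFNa (-1.68, limma adjusted p = 0.0536), and Fcgr2b with IC passed at 2.07 (limma adjusted p = 0.00568).

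Fcgr3 rose by 0.9576 on the log2 scale in LPS mice and fell in LPS cultures. All LPS mice lay above all PBS mice, and at 4 h all LPS_hi cultures lay below the CCL2 and CCL7 cultures. The tables were normalized separately, and the difference between mice and cultures was not tested.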

How the results depend on the processing

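No paired analysis was possible because the labels give no replicate numbers. With a minimum of 2-fold, calls over the members fell from 76 to 48 at 24 h, from 6 to 3 for stimuli at 4 h set against untreated cultures at 24 h (not described above, since time differs too), from 13 to 8 for additions to LPS, from 1 to 0 for LPS dose, from 2 to 0 between untreated cultures, from 2 to 1 in LPS mice and from 83 to 54 in the pathway lists. LPS mice had 4 calls with no minimum fold. The dose call was lost (0) with plate, pool or median-ratio scaling. Between untreated cultures 0 calls stood with plate or pool and 1 within cell lot May16. Aged mice had 1 call, Fcgr4, with the experiment in the fit, median-ratio scaling, a pseudocount of 5 or the second experiment alone.

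Fcgr3 reversed in 3 comparisons: Valproic Acid at 24 h from 0.65 to -0.064 (plate) and -0.11 (pool), TNFa at 72 h from -0.61 to 0.19 (pool), and untreated cultures at 72 h against 24 h from 0.98 to -0.023 (plate) and -0.28 (pool). The cause was not tested.

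Single samples were left out in groups of up to 5, and cultures that stood apart. This gave 76 calls at 24 h (1 omission), 6 at 4 h against 24 h and 6 at matched time (5 each), 78 to 81 at 72 h (44), 33 between stimuli (9), 12 to 13 for additions (23), 2 in LPS mice (8) and 54 to 56 balance tests (19). Of the culture values called in the main fit, with the plate in the fit 199 kept their direction and side of the threshold, 16 were no longer called and 2 reversed. Of those values and all mouse values, 216 kept them with median-ratio scaling. Culture values not called in the main fit are outside these counts. With the plate 71 calls were made at 24 h, 67 of them shared with the main fit, and 89 at 72 h, 77 of them shared. Without any 1 PBS mouse the balance in LPS mice was 0.52 to 0.60 for Fcgr3 and 0.93 to 1.01 for Fcgr4, with an exact permutation adjusted p of 0.07518 in each case.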

Other observations

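One culture at 72 h is labelled LPS_hi with a dose of 0.00001 ug/ul, the LPS_lo dose, and entered no comparison. It held 204 CPM of Fcgr1, 59.7 CPM of Fcgr2b, 306 CPM of Fcgr3, 99.0 CPM of Fcgr4 and 7850 CPM of Fcer1g.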
